A study of Mus musculus with 50 samples.

Results

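The 10 genes described here are Trem2, Gpnmb, Tyrobp, Cd68, Lgals3, Spp1, Lpl, Cd9, Adgre1 and Clec4f, 10 of the 24984 genes in each count file. They were chosen by name, as genes that macrophages of lipid-laden or injured tissue express, together with 2 markers of resident macrophages, Adgre1 and Clec4f. The choice was made with the differences between old and young kidney and liver in view, so the old and young values of RNA are given as a description with no p-value. Where members are counted past thresholds in the fit between ages, the counts restate that choice. The differences between tissues, and between mice or cells given a compound and their controls, were tested. Clec4f was chosen as a marker of liver macrophages, so the direction of its difference between tissues was known beforehand.

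The study profiled kidney and liver of C57BL/6 female mice by RNA-seq and by ATAC-seq, which maps open chromatin with a transposase. Untreated young mice were 2.5 months old and untreated old mice 23 to 25 months old, with 4 RNA libraries and 3 ATAC libraries for each tissue and age. A second set of old mice, 20 to 21 months old, received either the solvent DMSO or an agent that the labels call 3C, with 4 RNA libraries for each tissue and treatment. Skin fibroblasts of C57BL/6 mice, which the labels call P9, received DMSO or 3C in culture, with 3 RNA libraries each. None of these mice or cells carried a transgene or deletion by the labels. The sources used here do not say what 3C is, at which dose it was given, or whether the fibroblast libraries came from separate mice. Where libraries of 1 group are not from separate animals or cultures, the p-values below measure only the spread between these libraries, which may be technical.

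TREM2 is a receptor on macrophages that binds lipids, lipoproteins and debris of dying cells. It has almost no intracellular part of its own and signals through the adaptor TYROBP, also called DAP12, whose phosphorylated motif recruits the kinase SYK. Macrophages that take up lipid or clear injured cells are known to express TREM2 together with GPNMB, CD9, SPP1, LPL and LGALS3, while resident macrophages of the liver, the Kupffer cells, are known by CLEC4F and those of many tissues by F4/80, the product of Adgre1. Several of these genes are also expressed outside macrophages: osteopontin, the product of Spp1, by kidney tubule and bile duct cells, lipoprotein lipase by fat cells, and GPNMB by pigment cells and some fibroblasts.

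The libraries held between 14238228 and 43704147 counts in genes. Levels are given as CPM, counts divided by a library size that was scaled by TMM over all 38 libraries, and where genes are compared with each other as RPKM, which divides CPM by the kilobases of exon of all annotated transcripts of the gene. In bulk tissue, a change in the number of cells of a type and a change in RNA per cell cannot be told apart, and this holds for every level below. The labelled tissues carried their markers. The summed level of 5 hepatocyte genes was 87999 to 317530 CPM in the livers, that of 5 proximal tubule genes 3892 to 8939 CPM in the kidneys, and that of 7 fibroblast genes 13382 to 18188 CPM in the fibroblast libraries. Old kidney library 2 stood apart in holding 2501 CPM of the hepatocyte genes, against 140 to 237 CPM in the other 3 old kidneys, so the share of its member values that liver RNA could make up, and the ratios without it, are given below. The treated and the untreated sets of mice were tallied differently in the deposited files, so their levels are set side by side, and any order of groups across these sets or against the fibroblasts is a description with no test.

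The sequences before the start sites of Trem2, Gpnmb and Cd68 are shown because these 3 members had the highest ratios of old to young levels in kidney. Each line is the 250 bases before the start of transcription that RefSeq gives in GRCm38.p6, read in the direction of the gene, with capitals at every match to 1 of 3 motifs searched on both strands: the PU.1 motif GAGGAAG, the AP-1 motif TGANTCA and the E-box CACGTG of the MiT/TFE factors. PU.1 is the lineage factor of macrophages, AP-1 is the dimer of JUN and FOS proteins, and the MiT/TFE factors drive genes of the lysosome.
Trem2, chr17:48346151-48346400, plus strand: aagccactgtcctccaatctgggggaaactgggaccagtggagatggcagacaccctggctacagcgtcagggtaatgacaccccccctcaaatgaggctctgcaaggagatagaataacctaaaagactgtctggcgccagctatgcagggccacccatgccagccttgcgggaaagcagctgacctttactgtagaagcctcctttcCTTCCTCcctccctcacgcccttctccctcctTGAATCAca
Gpnmb, chr6:49036268-49036517, plus strand: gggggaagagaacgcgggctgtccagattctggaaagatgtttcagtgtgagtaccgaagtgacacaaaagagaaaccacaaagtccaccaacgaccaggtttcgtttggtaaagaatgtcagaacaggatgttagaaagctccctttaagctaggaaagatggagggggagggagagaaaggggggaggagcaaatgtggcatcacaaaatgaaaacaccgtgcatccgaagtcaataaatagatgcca
Cd68, chr11:69666171-69666420, minus strand: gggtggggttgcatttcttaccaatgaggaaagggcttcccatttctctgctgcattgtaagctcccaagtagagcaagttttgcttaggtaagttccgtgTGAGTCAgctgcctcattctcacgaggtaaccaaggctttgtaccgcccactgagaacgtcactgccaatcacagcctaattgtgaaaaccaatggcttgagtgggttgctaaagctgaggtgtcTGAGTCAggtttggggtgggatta
Trem2 held 1 PU.1 match on the opposite strand, 41 bases before the start, and 1 AP-1 match, TGAATCA, 9 bases before it. Cd68 held 2 AP-1 matches, both TGAGTCA, 149 and 24 bases before the start, and the Gpnmb window held no match to the 3 motifs. Of 32841 RefSeq start sites, 10.6% held the PU.1 motif in their 250 bases, 6.75% the AP-1 motif and 6.02% the E-box. Among the members, 7 of 10 had an entry, with 8 start sites in all, of which 2 held a PU.1 match (Trem2 and Spp1), 2 an AP-1 match and 0 the E-box. Tyrobp, Lpl and Adgre1 had no entry.

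Across the 10 groups, the members fell into different orders. Trem2 (chr17:48346401-48354147, plus strand, GRCm38) was highest in old liver at 8.61 ± 4.85 CPM (SD, n = 4.0), then in old kidney at 4.39 CPM and in DMSO fibroblasts at 4.2 CPM, and lowest in young liver at 1.15 and young kidney at 0.181 CPM. Of its 9 pairs of neighbours in this order, 7 had overlapping libraries, and the 2 that did not were 3C kidney above young liver and young liver above young kidney. With libraries scaled by their total counts alone, old kidney stood above old liver. Gpnmb (chr6:49036546-49070929, plus strand) had another order: it was highest in fibroblasts, at 259.7 ± 6.61 CPM (SD, n = 3.0) with 3C and 219 ± 14.2 CPM (SD, n = 3.0) with DMSO, and next in old liver at 7.31 CPM. Its fibroblast libraries all lay above 3.97 to 9.7 CPM, the range of old liver, while the pigment cell genes Tyr and Dct were at 0 in every fibroblast library and the summed level of the 5 pigment cell genes searched was 1.68 to 2.54 CPM there.

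**Figure D1:**
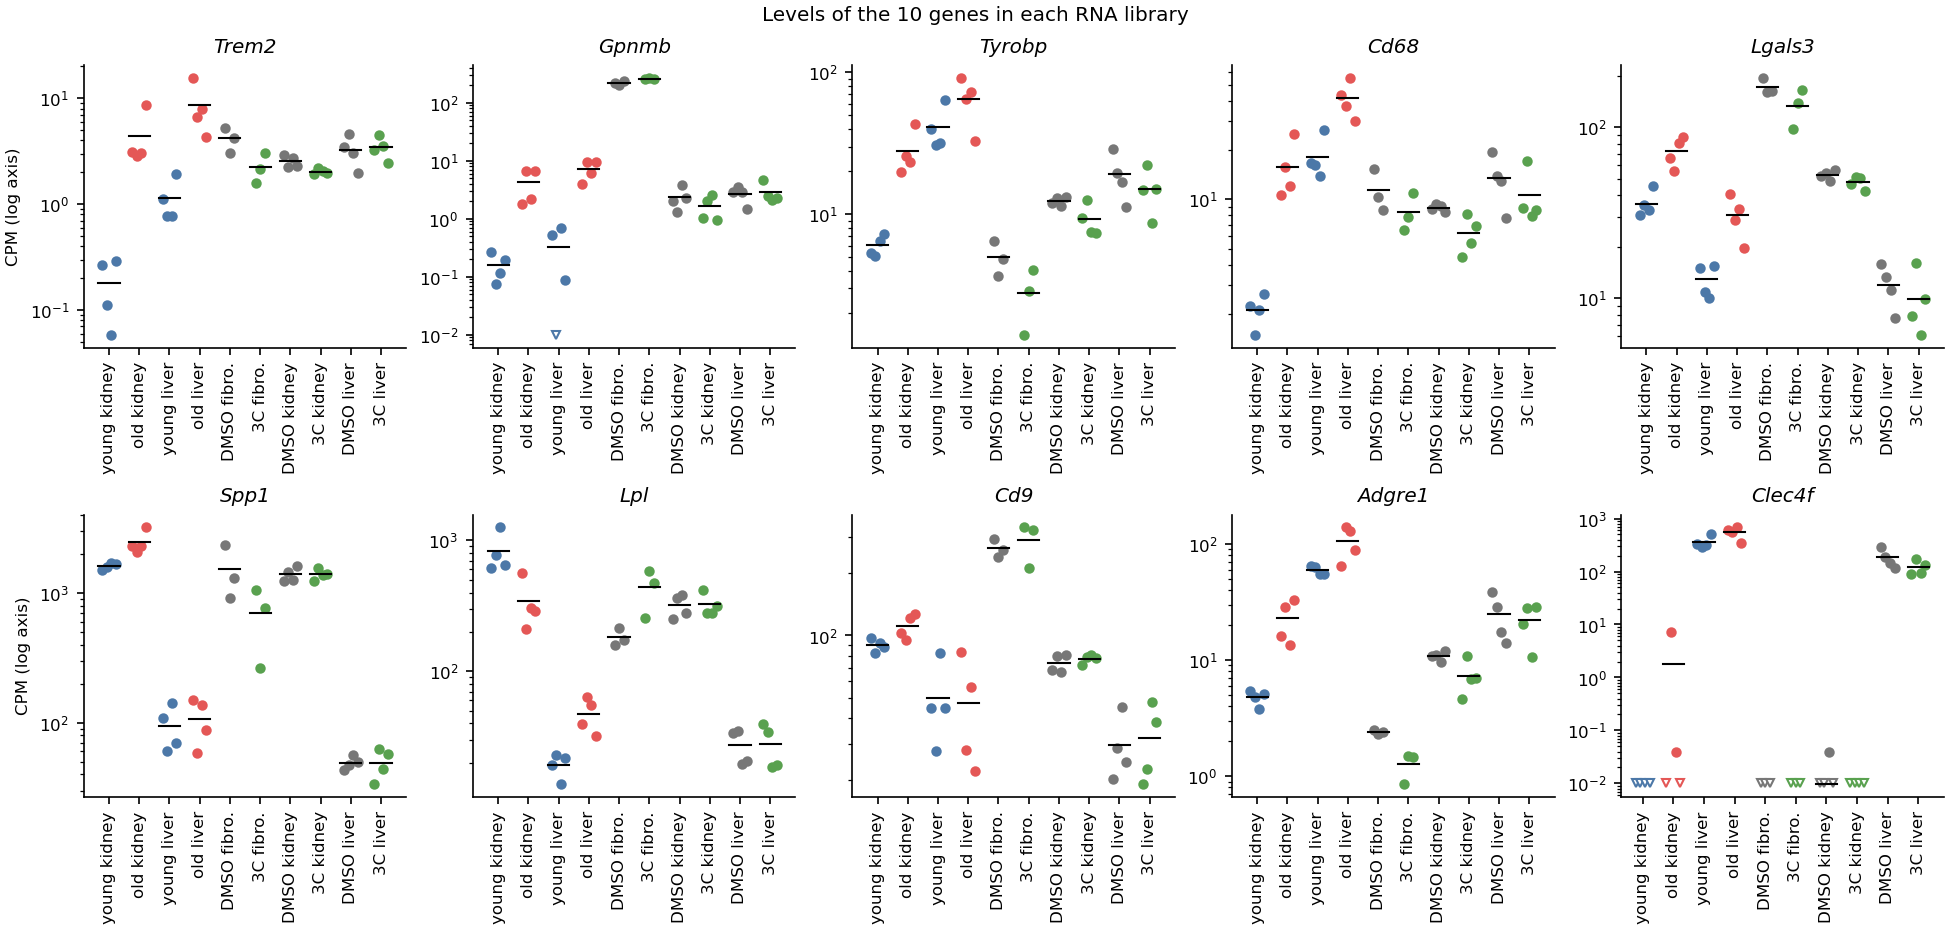
Level of each member in each of the 38 RNA libraries, in CPM on a log axis, with 1 panel per gene and the 10 groups along the horizontal axis. Each point is 1 library, black lines are group means, open triangles at the bottom are libraries with 0 counts, and colours mark young, old, DMSO and 3C. Trem2 and Gpnmb lie lowest in young kidney, and Clec4f is near 0 outside the livers apart from 1 old kidney library.

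Compared per length, the members differed widely within a tissue. In young kidney, Spp1 led at 979 RPKM, followed by Lpl at 78.8, Cd9 at 44 and Lgals3 at 19.3 RPKM, and Trem2 and Gpnmb were lowest among those detected at 0.0366 and 0.0249 RPKM. In old liver, Clec4f led at 223 RPKM, followed by Tyrobp at 97.7 RPKM. Its partner Trem2 was at 1.74 RPKM there. The adaptor thus had more RNA per length than the receptor in each tissue and age. In DMSO fibroblasts, Spp1 led at 924 RPKM, followed by Cd9 at 129, Lgals3 at 93.3, Gpnmb at 33.6, Lpl at 17.4 and Cd68 at 9.1 RPKM.

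The first comparison sets old against young tissue. Trem2 was scarcely counted in young kidney, with 0.264, 0.112, 0.0585 and 0.289 CPM in the 4 libraries, and these values rest on 16 reads in all. In old kidney the libraries held 3.11, 2.84, 3.05 and 8.57 CPM. All 4 old kidneys lay above all 4 young ones, and old kidney 4 lay well above the other 3. The fitted log2 ratio of old to young was 4.64 ± 0.58 (SE, n = 4 per group), and 4.05 without old kidney 4.

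In liver, Trem2 was at 1.13, 0.771, 0.782 and 1.93 CPM in young mice and 15.5, 6.66, 7.96 and 4.29 CPM in old mice. The groups did not overlap here either, with old liver 1 highest and young liver 4 the highest of the young. The log2 ratio was 2.91 ± 0.47. Tyrobp (chr7:30413760-30417585, plus strand), the adaptor that carries the TREM2 signal into the cell, was at 5.33, 5.1, 6.44 and 7.23 CPM in young kidney and 19.7, 25.6, 23.3 and 43 CPM in old kidney, again without overlap and with old kidney 4 highest. Its log2 ratio in kidney was 2.29 ± 0.27. In liver, Tyrobp was at 39.6, 30.6, 31.6 and 63.5 CPM in young and 91.1, 64.6, 72.1 and 32.9 CPM in old mice, where old liver 4 lay within the young range, at a log2 ratio of 0.68 ± 0.32.

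Gpnmb encodes a transmembrane glycoprotein of lysosomes and melanosomes. Young kidney held 0.264, 0.0745, 0.117 and 0.193 CPM, 14 reads in all, and old kidney 1.8, 6.58, 2.16 and 6.78 CPM. The groups did not overlap, and old kidneys 2 and 4 lay well above the other pair. Young liver held 0.526, 0, 0.695 and 0.0878 CPM, 16 reads in all, and old liver 3.97, 9.46, 6.13 and 9.7 CPM, also without overlap. The log2 ratios were 4.81 ± 0.64 in kidney and 4.49 ± 0.67 in liver, and 4.49 in kidney without old kidney 4. The ratio of the group means was 26.7 in kidney and 22.4 in liver, where 1 of the young livers had 0 counts.

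Cd68 (chr11:69664213-69666153, minus strand) encodes a glycoprotein of macrophage lysosomes. It was at 2.24, 1.49, 2.11 and 2.65 CPM in young and 10.6, 15.8, 12 and 25 CPM in old kidney, and at 16.6, 16.1, 13.8 and 26.4 CPM in young and 43.6, 37, 55.2 and 30.2 CPM in old liver. Neither tissue showed an overlap between ages, and the log2 ratios were 2.98 ± 0.33 and 1.20 ± 0.26. Adgre1 (chr17:57358691-57483527, plus strand), which encodes the macrophage surface protein F4/80, was at 5.46, 4.84, 3.8 and 5.11 CPM in young and 16.1, 28.7, 13.5 and 32.8 CPM in old kidney, without overlap, at a log2 ratio of 2.33 ± 0.31. In liver it was at 64.8, 62.9, 55.1 and 55.5 CPM in young and 64.2, 139, 129 and 88.2 CPM in old mice, where old liver 1 lay within the young range, at a log2 ratio of 0.84 ± 0.23.

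The secreted and lipid-handling members were less uniform. Lgals3 (chr14:47367751-47386160, plus strand), which encodes the lectin galectin-3, ranged from 30.5 to 45.2 CPM in young and from 55.3 to 87.8 CPM in old kidney, and from 9.99 to 15.5 CPM in young and from 19.7 to 40.8 CPM in old liver. The ages did not overlap in either tissue, with log2 ratios of 1.08 ± 0.18 and 1.27 ± 0.26. Spp1 (chr5:104435118-104441050, plus strand), which encodes osteopontin, ranged from 1500.3 to 1705 CPM in young and from 2081 to 3208 CPM in old kidney, without overlap and at a log2 ratio of 0.68 ± 0.16, while in liver the ages overlapped (60.8 to 141 and 58.4 to 148 CPM). Cd9 (chr6:125460266-125494791, minus strand), a tetraspanin of many cell types, overlapped between ages in both tissues, at log2 ratios of 0.37 ± 0.12 and -0.05 ± 0.42.

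Lpl (chr8:68880491-68907448, plus strand), which encodes lipoprotein lipase, differed in direction between the tissues. It was lower in old kidney, at 561, 212, 306 and 289.8 CPM, than in young kidney, at 616, 775, 1259 and 655 CPM, without overlap. In liver it was higher in old mice, at 39.5, 63.4, 55.5 and 32.1 CPM, than in young mice, at 19.3, 22.9, 13.8 and 21.7 CPM, also without overlap. The log2 ratios were -1.22 ± 0.31 and 1.31 ± 0.25, and whether they differ was not tested. The fat cell genes Adipoq, Plin1, Cidec, Retn, Cfd and Lep summed to 257 to 498 CPM in young kidney and 56.1 to 349.6 CPM in old kidney, with 5 of the 6 genes lower in old kidney. Their part in the Lpl values was not tested.

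Clec4f (chr6:83644542-83656187, minus strand) encodes a lectin of Kupffer cells. Its level was 335, 290.3, 314 and 507 CPM in young liver and 608, 566, 683 and 349 CPM in old liver, where old liver 4 lay within the young range, at a log2 ratio of 0.63 ± 0.26. Young kidney had 0 counts in all 4 libraries, and old kidney 0, 7.11, 0.0386 and 0 CPM. Old kidney 2 alone held more than a trace, which was 1.29% of the mean of old liver, beside hepatocyte genes at a median of 1.51% of old liver in that library. Clec4f was the lowest of 8 Kupffer cell genes by this measure, which had a median of 2.38% there and of 0.526% to 1.20% in the other old kidneys. Liver RNA at the percentage given by Clec4f would make up 3.91% of the Trem2 level in old kidney 2, 1.43% of Gpnmb, 3.39% of Cd68 and 4.71% of Adgre1. At the median of the Kupffer cell genes it would make up 7.21%, 2.64%, 6.25% and 8.68%. Without that library the log2 ratios of old to young kidney were 4.80 ± 0.58 for Trem2, 4.53 ± 0.63 for Gpnmb, 2.32 ± 0.28 for Tyrobp, 2.98 ± 0.34 for Cd68 and 2.19 ± 0.31 for Adgre1.

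**Figure D2:**
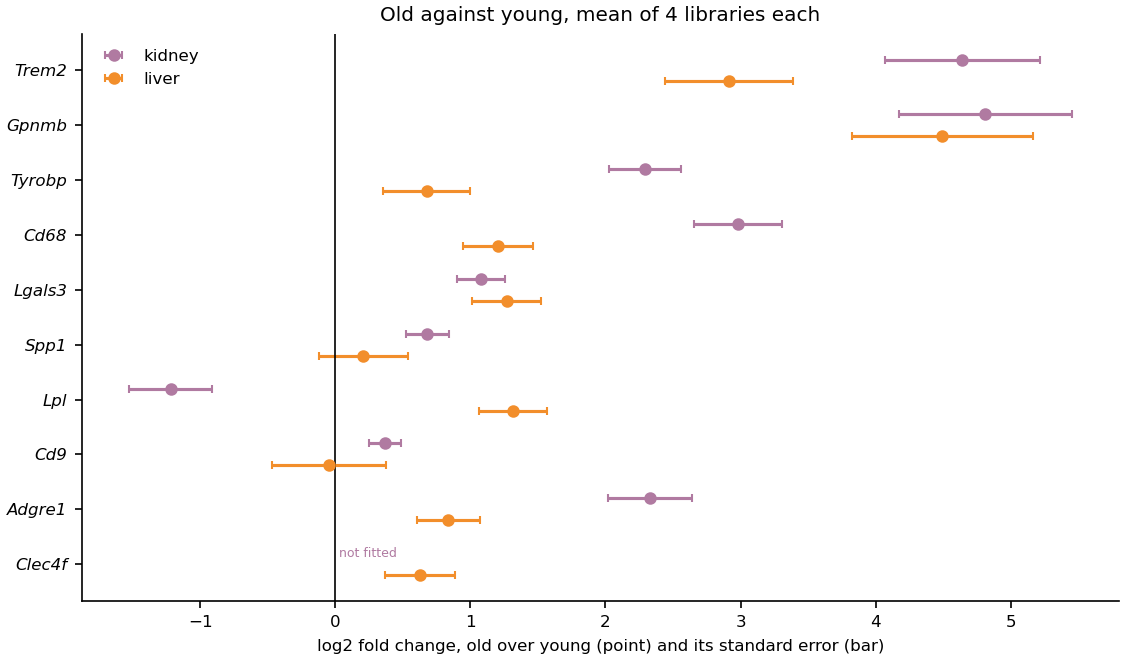
Log2 ratio of old to young level for each member in kidney and in liver from the edgeR fit, with bars of 1 SE (n = 4 libraries per group). Trem2 and Gpnmb lie farthest to the right in both tissues, and Lpl lies below 0 in kidney and above 0 in liver. Clec4f was fitted in liver only.

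The counts of members past the thresholds of the study (adjusted p under 0.05 with a fold above 2 or below 0.5) restate how the members were chosen. Trem2 and Gpnmb in kidney, and Gpnmb in liver, also entered the fits through the old libraries alone. They had 16, 14 and 16 reads over the 4 young libraries, so the filter on low counts favoured their calls. In kidney, 6 of the 9 members fitted were higher, against 5.68% of all 14495 genes tested, and Lpl was the 1 that was lower, against 0.407%. The same 7 passed without old kidney 2, when 337 genes were lower in place of 59. Libraries of the ages did not overlap for 8 of the 9, against 19.7% of all genes. In liver, 5 of 10 members were higher (Trem2, Gpnmb, Cd68, Lgals3 and Lpl), against 1.69% of 12537 genes, and the same 5 did not overlap, against 5.87%. Without old kidney 4, Lgals3 and Lpl no longer passed. Lpl also failed without young kidney 2, without young kidney 3 and without old kidney 3, and Lgals3 without young kidney 1. In liver, between 1 and 6 members passed when 1 library was left out: 1 (Gpnmb) without young liver 1 or young liver 3, 2 (Trem2 and Gpnmb) without young liver 2, old liver 2 or old liver 3, and 6 (Adgre1 joining) without old liver 1.

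Other genes of the same pathway and cell type were read from lists set with earlier results of these data known. Of 8 fitted partners of TREM2 and TYROBP in kidney, 3 passed as higher in old mice: the guanine nucleotide exchange factor Vav1 (log2 ratio 2.53 ± 0.44), the kinase Syk (2.33 ± 0.45) and the lipid phosphatase Inpp5d (1.61 ± 0.32). In liver 1 of 8 passed, Vav1 (1.48 ± 0.27). Of 20 further genes of lipid-associated macrophages, 7 passed as higher in kidney, led by Cst7 (3.93 ± 0.71) and the scavenger receptor Msr1 (3.05 ± 0.68), and 1 of 18 in liver, the fatty acid transporter Cd36. None of the 4 MiT/TFE factor genes passed in either tissue. Of 13 general macrophage genes, 11 passed as higher in old kidney, among them lysozyme Lyz2 (3.54 ± 0.30), and 5 in old liver.

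The summed level of those 13 genes, which hold no member, moved with age as well: 215 to 237 CPM in young kidney, 675 to 1333 CPM in old kidney, 935 to 1405 CPM in young liver and 1494 to 2974 CPM in old liver. None of the 13 was at 0 in a whole group. Genes of other blood cells moved with age too, to be set against the same shares of all genes, 5.68% in kidney and 1.69% in liver. Only genes past the filter on low counts are counted, and a gene scarce in young tissue can pass it through old tissue alone. In kidney 6 of 6 fitted B and plasma cell genes passed as higher in old mice, 4 of 5 T cell genes, 3 of 3 monocyte genes and 2 of 2 neutrophil genes. In liver 4 of 5 B and plasma cell genes passed, 2 of 4 monocyte genes, 4 of 4 neutrophil genes and 0 of 4 T cell genes. The 6 neutrophil genes summed to 1.68 to 7.37 CPM in young liver and to 134, 24.3, 176 and 17.5 CPM in the 4 old livers, of which livers 1 and 3 stood apart. Lcn2, searched here as an injury gene and not among the 6 neutrophil genes, was also high in those 2 livers. It was at 2455 and 4117 CPM there, against 108 and 139.5 CPM in old livers 2 and 4. Without livers 1 and 3, a setting added after the data were seen, the log2 ratios of old to young liver were 2.25 ± 0.46 for Trem2, 4.87 ± 0.66 for Gpnmb, 1.30 ± 0.28 for Lpl, 0.88 ± 0.26 for Cd68 and 0.91 ± 0.25 for Lgals3. The other ratios were then -0.98 ± 0.36 for Cd9, 0.24 ± 0.33 for Tyrobp, 0.34 ± 0.27 for Clec4f, 0.93 ± 0.19 for Adgre1 and -0.38 ± 0.32 for Spp1. In this setting 3 members passed (Trem2, Gpnmb and Lpl) in place of 5. The part of these cell types in the member values was not tested.

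Old kidney 4, where Trem2, Tyrobp, Cd68 and Adgre1 were highest, had the highest sum of the 13 general macrophage genes among the kidneys. Each member was also expressed per 100 reads of the 13 genes, a setting added after the data were seen. On this scale young kidneys held 0.0801 ± 0.0490 reads of Trem2 and old kidneys 0.471 ± 0.127 (SD, n = 4), a ratio of 5.88. Young livers held 0.0985 ± 0.0277 and old livers 0.366 ± 0.175, a ratio of 3.72. Gpnmb had ratios of 6.54 in kidney and 11.2 in liver. For both genes the ages did not overlap in either tissue.

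Cd68 kept separate ages in kidney on this scale, at a ratio of 1.86, and overlapped in liver. Tyrobp overlapped in both tissues, with 2.70 ± 0.47 in young and 3.15 ± 0.25 in old kidney. So did Adgre1, with 2.14 ± 0.29 and 2.55 ± 0.59 in kidney. Lgals3, Spp1, Lpl and Cd9 all lay lower in old than in young kidney, without overlap. For Lgals3 (8.68 against 16.1), Spp1 (291 against 723) and Cd9 (13.4 against 40.2) this turned the direction of the ratio in CPM. The sum of the 13 genes itself had a mean of 224 CPM in young and 885 CPM in old kidney, and of 1130 and 2326 CPM in liver. Any gene that rose less than this sum lies lower on this scale, so a lower value here does not show a loss of the gene. In liver the direction turned for Clec4f, at 23.7 ± 0.71 in old against 31.7 ± 3.7 in young mice without overlap, and for Tyrobp, Adgre1 and Spp1, whose ages overlapped.

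**Figure D3:**
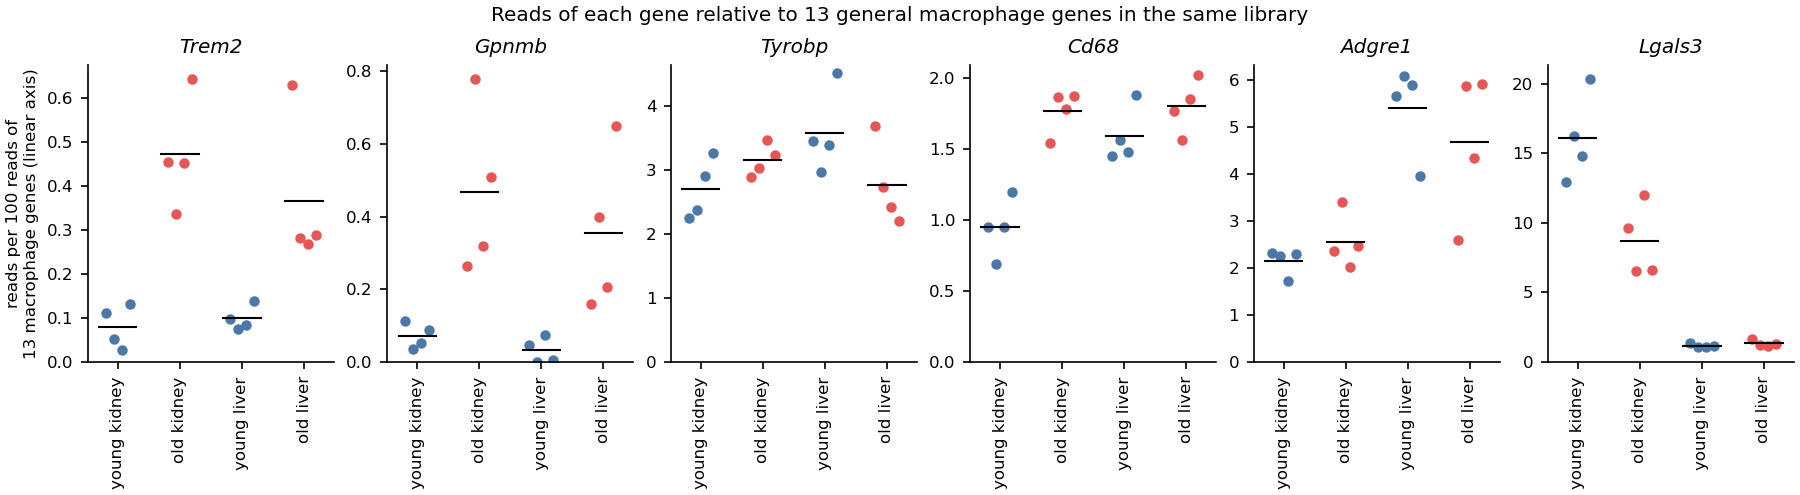
Reads of 6 of the members per 100 reads of 13 general macrophage genes, on a linear axis from 0, in the 16 untreated libraries. Each point is 1 library of young or old kidney or liver, and black lines are group means. Trem2 and Gpnmb are higher in all old than in all young libraries of both tissues, while Tyrobp and Adgre1 overlap.

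The second comparison asks whether the members differ between tissues, and was tested by edgeR's quasi-likelihood test with adjustment over all genes. In young mice, 8 members were fitted, and 3 of them were lower in liver than in kidney, against 25.7% of all 14057 genes. Apart from Clec4f, whose call was fixed by the filter, 3 members were called higher, against 16.9%. These were the macrophage members Adgre1, Cd68 and Tyrobp, with log2 ratios of liver to kidney of 3.64 ± 0.16 (adjusted p = 1.25e-09), 3.12 ± 0.27 (adjusted p = 8.16e-07) and 2.79 ± 0.25 (adjusted p = 1.18e-06). Clec4f entered the fit through liver alone, so that its call was fixed by the filter. It had 0 counts in young kidney and 17982 in young liver, at least 10381-fold higher with TMM-scaled library sizes and at least 4939-fold higher with total counts, when the kidney is set to 3 counts over the group.

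Lower in liver were Lpl at -5.40 ± 0.28 (adjusted p = 7.82e-09), Spp1 at -4.08 ± 0.27 (adjusted p = 5.26e-08) and Lgals3 at -1.47 ± 0.19 (adjusted p = 3.29e-05). Cd9 was at -0.84 ± 0.26 (adjusted p = 0.0125), under the fold threshold, and passed at -1.19 (log2) without young liver 3 and at -1.94 with total counts (adjusted p = 2.84e-05 by edgeR). Trem2 and Gpnmb did not pass the filter on low counts in young tissue. The Trem2 libraries of young liver all lay above those of young kidney, and those of Gpnmb overlapped. The 13 general macrophage genes stood at 215 to 237 CPM in young kidney and 935 to 1405 CPM in young liver, and 10 of them passed as higher and 1 as lower in liver.

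In the DMSO mice, all 10 members were fitted. Trem2 was at 2.93, 2.26, 2.73 and 2.32 CPM in kidney and 3.45, 4.59, 3.01 and 1.96 CPM in liver, and the tissues overlapped. Its log2 ratio was 0.32 ± 0.26 (adjusted p = 0.294 by edgeR), and that of Gpnmb 0.15 ± 0.35 (adjusted p = 0.718). Tyrobp and Cd68 did not pass, at 0.60 ± 0.23 and 0.58 ± 0.23, both under the fold threshold. Apart from Clec4f, whose call was fixed by the filter, Adgre1 alone was higher in liver, against 15.7% of 14981 genes. Its log2 ratio was 1.17 ± 0.27 (adjusted p = 0.00182 by edgeR). Of the members, 4 were lower, Spp1 at -4.85 ± 0.16, Lpl at -3.56 ± 0.23, Lgals3 at -2.16 ± 0.18 and Cd9 at -1.35 ± 0.20, against 26.6%. Their adjusted p-values by edgeR were 8.38e-11, 4.42e-08, 4.41e-07 and 7.28e-05.

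Clec4f again entered through liver alone. It had 1 count in DMSO kidney and 10471 in DMSO liver, a ratio of 19611 with TMM-scaled library sizes (95% counting interval 3519 to 774675) and of 9695 with total counts (1740 to 382975). Adgre1 fell under the fold threshold without DMSO liver 1, at 0.90. With total counts in place of TMM, the median log2 ratio over all genes moved from -0.07 to -1.06 in the DMSO mice and from -0.08 to -1.16 in young mice. In the DMSO mice Adgre1 was then at 0.20 (adjusted p = 0.536 by edgeR), and the ratios of Trem2, Gpnmb, Tyrobp and Cd68 turned to -0.67, -0.85, -0.38 and -0.40.

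The third comparison tested 3C against DMSO. In fibroblasts, Lpl was the member that passed. It rose from 158, 214 and 175 CPM with DMSO to 256, 589 and 476 CPM with 3C, without overlap, at a log2 ratio of 1.28 ± 0.26 (adjusted p = 0.0215 by edgeR, higher in 3 of 3 libraries). The 1 of 9 members fitted compares with 1.23% of all 13449 genes called higher. Its call was lost when DMSO library 1 (adjusted p = 0.0538), DMSO library 3 (0.115) or 3C library 2 (0.0848, log2 ratio 1.03) was left out of the edgeR fit.

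Among the other members in fibroblasts, Gpnmb was at 218, 205 and 233 CPM with DMSO and 253, 266 and 259.7 CPM with 3C. Its libraries did not overlap, but the log2 ratio of 0.26 ± 0.12 did not pass (adjusted p = 0.248 by edgeR). Together with Lpl it made 2 of 9 members without overlap and higher, against 12.1% of all genes. Trem2 was at 5.28, 3.06 and 4.26 CPM with DMSO and 1.59, 2.13 and 3.05 CPM with 3C, at a log2 ratio of -0.89 ± 0.30 (adjusted p = 0.119). Adgre1 was at 2.49, 2.29 and 2.39 and 0.857, 1.5 and 1.45 CPM, at a log2 ratio of -0.90 ± 0.29 (adjusted p = 0.107). These 2 of 9 were without overlap and lower, against 13.5% of all genes.

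Spp1 varied widely among replicates, with 2346, 911 and 1310.1 CPM with DMSO and 1063, 264 and 761 CPM with 3C, and its libraries overlapped. The log2 ratio of -1.12 ± 0.45 did not pass (adjusted p = 0.192 by edgeR), though it did with no filter on low counts (-1.12, adjusted p = 0.0435). Tyrobp, Cd68, Lgals3 and Cd9 had log2 ratios from -0.84 to 0.15 and overlapped. Clec4f had 0 counts in all 6 libraries. The 13 general macrophage genes summed to 232 to 291 CPM with DMSO and 104 to 148 CPM with 3C, with none at 0 in a whole group. Among those that were fitted, Lyz2 passed as lower (-1.35 ± 0.18, adjusted p = 0.00270 by edgeR). Set against reads of the 13 genes, as for age above and with no test, Trem2 had a mean of 1.61 with DMSO and 1.70 with 3C. Adgre1 was at 0.931 and 0.955, and both genes overlapped between treatments. Gpnmb was at 85.4 and 202, and the means of the other fitted members were also higher with 3C. A gene that fell less than the summed 13 genes lies higher here, so a higher value alone does not show a rise. Of the 4 MiT/TFE factor genes 1 passed: Tfec fell by 1.54 on the log2 scale (adjusted p = 0.00381 by edgeR). Their part in the member values was not tested.

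In kidney, no member passed, nor did any of the 14974 genes tested by edgeR (0 called either way), of which 1786 had an unadjusted p under 0.05. DESeq2 called 5 genes, none of them a member. Trem2 was at 2.93, 2.26, 2.73 and 2.32 CPM with DMSO and 1.94, 2.18, 2.05 and 1.96 CPM with 3C. The lowest DMSO library lay just above the highest 3C library, and the log2 ratio was -0.36 ± 0.16 (adjusted p = 0.424 by edgeR). Cd68, at 8.7, 9.32, 9.13 and 8.36 CPM with DMSO and 4.45, 8.11, 5.38 and 6.87 CPM with 3C, did not overlap either, at a log2 ratio of -0.53 ± 0.17 (adjusted p = 0.266). These 2 of 9 members compare with 2.99% of all genes without overlap and lower.

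Gpnmb overlapped in kidney, with 2.06, 1.33, 3.79 and 2.32 CPM with DMSO and 1.01, 2.01, 2.62 and 0.95 CPM with 3C, at a log2 ratio of -0.55 ± 0.38. Adgre1 and Tyrobp were at -0.58 ± 0.20 and -0.46 ± 0.16, and Lgals3 at -0.17 ± 0.07. Spp1, Lpl and Cd9 lay within 0.05 of 0 on the log2 scale. The ratios were below 0 for 8 of the 9 members, but those of Spp1 (-0.018) and Lpl (-0.0056) changed sign when single libraries were left out. They were also below 0 for 12 of the 13 general macrophage genes, whose sum was 517 to 578 CPM with DMSO and 350.4 to 505 CPM with 3C. The share of all genes below 0 is not set beside these counts, so nothing is read from them. The 7 fibroblast genes were also all below 0, and 5 of them did not overlap. Whether the member values follow from those of either list was not tested.

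In liver, 0 of 10 members passed and 0 of 13042 genes were called either way by edgeR, with 436 at an unadjusted p under 0.05 and 2 called by DESeq2. The treatments overlapped for every member, against 2.28% of all genes without overlap. Clec4f had the log2 ratio farthest from 0, -0.63 ± 0.29 (adjusted p = 0.9996 by edgeR), with 295, 184, 143 and 118 CPM with DMSO and 89.6, 171, 94.6 and 133 CPM with 3C. DMSO liver 1 was highest, and the other 3 DMSO livers lay among the 3C livers or just above them. Trem2 was at 3.45, 4.59, 3.01 and 1.96 CPM with DMSO and 3.27, 4.51, 3.52 and 2.45 CPM with 3C, at 0.06 ± 0.30, and Gpnmb at 0.09 ± 0.35. Their signs turn when single libraries are left out.

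Whether the 3C ratios differ between liver and kidney was tested by the interaction of tissue and treatment. Of 15526 genes, 0 passed by edgeR (554 at an unadjusted p under 0.05, and 0 by DESeq2). The differences of the members other than Clec4f ran from -0.13 ± 0.32 for Lgals3 to 0.63 ± 0.56 for Gpnmb on the log2 scale, and that of Trem2 was 0.40 ± 0.34. Clec4f had 1 count in the 8 kidney libraries, so its 3C ratios cannot be compared between the tissues.

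**Figure D4:**
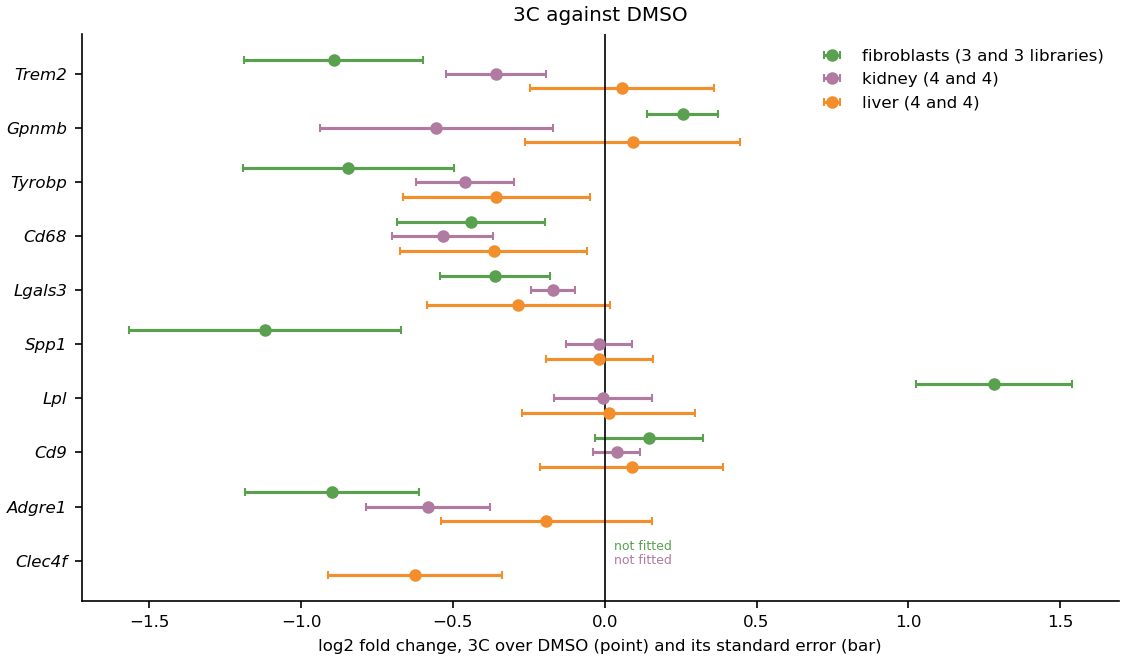
Log2 ratio of 3C to DMSO for each member in fibroblasts (n = 3 per group), kidney and liver (n = 4 per group) from the edgeR fits, with bars of 1 SE. Lpl in fibroblasts is the point past the thresholds, and the liver points lie around 0 apart from Clec4f.

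ATAC-seq was measured in untreated mice only. For each member, the values are the fold enrichment over background of the strongest deposited peak that overlaps 1 kb on either side of a start site, and 0 means that no peak was called there, which does not show that the chromatin was closed. With 3 libraries against 3 an exact permutation test cannot go below 0.1, so no test was made. The libraries held 93072 to 136849 peaks, and 14764 to 16289 genes had a promoter peak.

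In kidney, no library of either age had a promoter peak at Trem2, Gpnmb, Cd68 or Clec4f. Tyrobp was at 2.76, 2.46 and 0 in young and 3.02, 3.55 and 4.86 in old kidney. It was the 1 of 6 members with a peak whose old libraries all lay higher, against 13.1% of 17812 genes. That separation was lost when peaks had to reach a −log10 q of 5, and with a narrower window, where Adgre1 separated instead. The strongest Tyrobp peaks of the old kidneys had their summits 824 to 905 bases before the start site, and those of young kidneys 57 bases before and 98 bases after it, so different peaks are being compared. Adgre1 was at 0, 2.82 and 0 in young and 2.55, 3.51 and 4.25 in old kidney, and with Tyrobp made 2 of 6 members with a peak in more old than young libraries, against 5.85% of genes. Lgals3 ran the other way, at 7.84, 5.95 and 6.7 in young and 6.14, 3.95 and 5.54 in old kidney, with an overlap.

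In liver, Trem2 was at 3.19, 2.85 and 0 in young and 4.4, 2.86 and 3.17 in old mice, with an overlap. The strongest peak lay within the gene, with its summit 1055 to 1123 bases after a start site in 4 of the 5 libraries that had one. Gpnmb had a peak in old liver 3 alone, at 2.54. Cd68 was at 2.2, 0 and 2.19 in young and 3.3, 1.73 and 2.4 in old liver, Lgals3 at 3.19, 0 and 0 and 4.24, 2.59 and 5.65, and Adgre1 at 3.0, 0 and 3.17 and 4.0, 2.86 and 3.58. With Clec4f, these made 6 of the 9 members with a peak for which more old than young libraries had one, against 11.8% of 17931 genes, and all 6 overlapped in height when libraries with no peak are set to 0. The Cd68 peak of old liver 2 was weak, at a −log10 q of 0.565 with its summit 1167 bases from the start site. Without that peak, Cd68 would not be among the 6.

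Cd9 was the 1 member of 9 whose old livers all lay lower, against 6.23% of genes, with 5.31, 4.54 and 4.9 in young and 2.81, 3.21 and 3.15 in old liver. This held with a stricter q, a narrower window and each library left out, while its RNA overlapped between the ages. Leaving out 1 library brought in up to 3 further members in liver, among them Lpl, and up to 2 further ones in kidney.

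**Figure D5:**
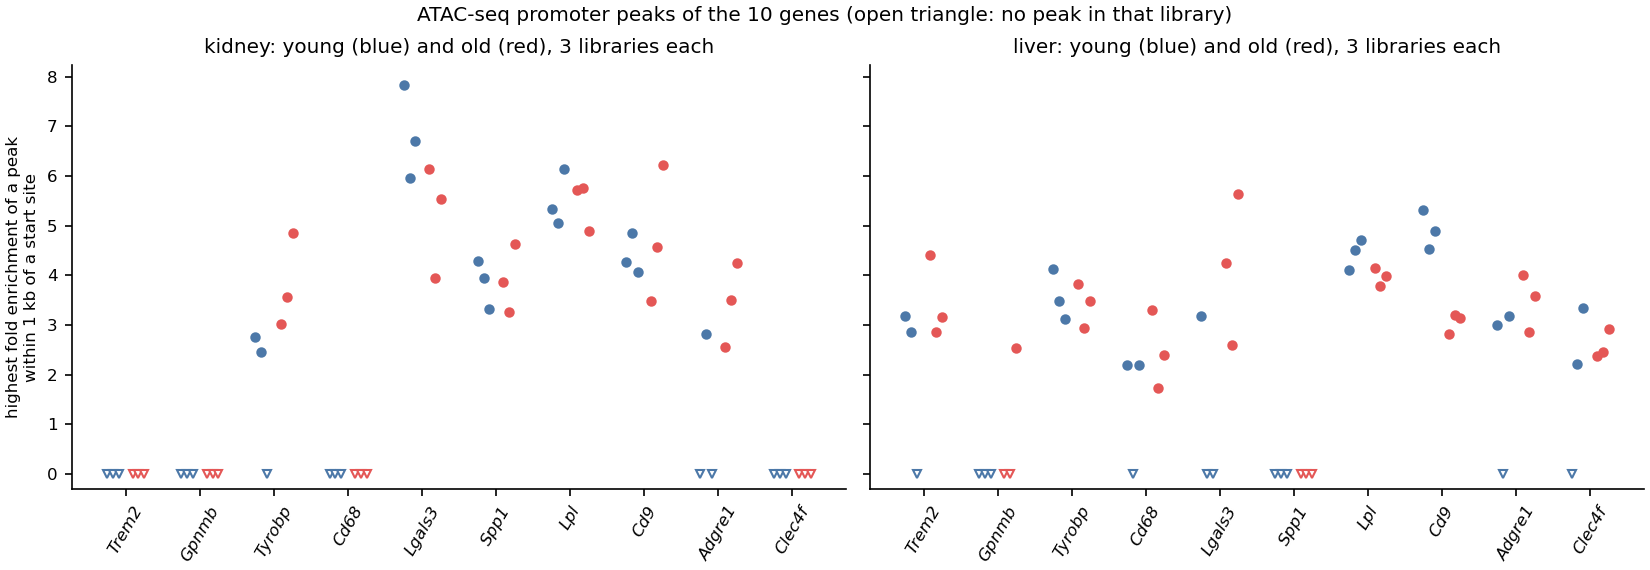
Fold enrichment of the strongest promoter peak of each member in the 12 ATAC libraries, by tissue and age, where each point is 1 library and 0 means no peak called. Cd9 in liver and Tyrobp in kidney are the members whose ages do not overlap.

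The genes whose levels varied most like Trem2 and Gpnmb from library to library were sought over the 32 kidney and liver libraries, after centring each gene on its group mean, among 13182 genes of at least 1 CPM on average. The 5 nearest to Trem2 by Spearman correlation were Fxyd5 (0.79), Pglyrp1 (0.79), Slfn2 (0.74), Gna15 (0.74) and Plekho1 (0.72). Without old kidney 4 they were Cln3 (0.79), Fxyd5 (0.78), Gna15 (0.75), Pglyrp1 (0.74) and Aldh3b1 (0.74). The 5 nearest to Gpnmb were Sept10 (0.78), Plat (0.77), Megf6 (0.75), Slit3 (0.75) and Cyp1b1 (0.72). Without 3C liver 1 they were Sept10 (0.81), Plat (0.75), Slit3 (0.73), Gpr35 (0.73) and Megf6 (0.73). Trem2 and Gpnmb had a correlation of 0.17 with each other on this measure, and 0.059 without old kidney 4. Trem2 had 0.69 with Cd68, and 0.63 without that library. Libraries share depth and cell content across genes, so these are descriptions and carry no test.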

How the data were processed

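Gene counts per library were deposited by the authors as raw HTSeq counts (version 0.12.4), made after Trimmomatic 0.39 and HISAT2 2.2.1 on mm10, per the submitters' processing notes. The annotation version used for counting is not given in the sources used here, and reads were counted without strand by the study's methods. ATAC peaks were deposited by the authors as MACS2 intervals after Bowtie2 2.3.5.1, with a fold enrichment, a ratio over background, and a −log10 q-value for each peak and library. DiffBind 2.12.0 is also named there and was not used here.

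The members and all other gene lists were chosen with earlier results of these data known. Every member is named. Of other lists, at most 4 called genes per comparison are named by smallest p, and in the age comparisons at most 4 by largest fold among those whose ages do not overlap. For likeness, the 5 nearest genes are named.

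Counts were filtered by filterByExpr (minimum count 10), scaled by TMM, and tested two-sided by edgeR 4.0.16 in R 4.3.3, with Benjamini-Hochberg adjustment over all genes, a threshold of 0.05 and a fold above 2 or below 0.5 (no fold for the interaction). Each comparison was fitted on its own groups. CPM for levels used TMM over all 38 libraries, and likeness used log2 CPM with a prior count of 2. Promoter windows reached 1 kb to either side of GENCODE start sites of the same build. Alternatives were DESeq2 1.42.0, RLE size factors, other filters, adjusted p alone, replicate block, each library left out, and, added after the data were seen, total-count scaling, reads per macrophage read and old livers 1 and 3 left out. Scripts were tested on simulated data. Library totals were 14238228 to 43704147 counts in genes, and intervals cover counting error only. Some results for single genes of the lists are not reported here.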

Additional observations from a re-analysis of the deposited data

Results flagged for a closer look

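Of 78 pairs of a member and a group of 4 libraries, 5 held 1 library far from the other 3, judged by its gap to the nearest library as a share of the range of the group. Chance alone gives about 1 such group in 20. Trem2 was at 8.57 CPM in old kidney 4, against 2.84 to 3.11 CPM in the other old kidneys. Gpnmb was at 4.70 CPM in 3C liver 1, against 2.09 to 2.42 CPM. Cd68 was at 17.2 CPM in 3C liver 2, against 7.96 to 8.85 CPM. Clec4f was at 7.11 CPM in old kidney 2, the library that held hepatocyte genes, and at 0.0390 CPM in DMSO kidney 3, which is 1 count, where the other libraries of those groups had 0 or 1 count.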

How the results depend on the processing

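Of the 56 counts of members called under other settings, 52 kept within 1.5 times, as did 47 of 56 counts over all genes. Member calls moved in old against young liver (5, and 2 with the replicate block or 3 without old livers 1 and 3) and in fibroblasts (1, and 2 with no filter on low counts or with the replicate block). Counts of genes moved to 1669 from 882 (kidney age), 567 from 251 (fibroblasts), 9187 from 5987 (tissue in young) and 10765 from 6336 (tissue in DMSO) with adjusted p alone, to 595 from 267 (liver age) with DESeq2 and 139 with the replicate block, from 0 to 5 (3C kidney) and 2 (3C liver) with DESeq2, and to 9042 (tissue in young) with total counts. Total-count scaling, reads per macrophage read and leaving out old livers 1 and 3 were chosen after seeing the data. Total counts turned the liver to kidney ratios in DMSO mice of Trem2 (-0.67), Gpnmb (-0.85), Tyrobp (-0.38) and Cd68 (-0.40) and the 3C ratio of Lpl in liver (-0.016), which the block also turned (-0.011). Per macrophage read, the log2 age ratios of Lgals3 (-0.89), Spp1 (-1.31) and Cd9 (-1.58) turned in kidney, and those of Tyrobp (-0.37), Adgre1 (-0.21), Spp1 (-0.90) and Clec4f (-0.42) in liver. The liver ratio of Spp1 also turned without old livers 1 and 3 (-0.38). In ATAC, the kidney count of 1 member went to 0 at a −log10 q of 5.

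Leaving out 1 library gave 1 to 6 members and 76 to 444 genes for liver age, 0 to 1 members and 118 to 251 genes in fibroblasts, 0 to 3 genes for 3C in kidney, 0 to 1 for the interaction, and 1 to 3 ATAC members in kidney and 1 to 4 in liver. Ratios near 0 changed sign: for 3C in kidney Spp1 (-0.083 to 0.064), Lpl (-0.14 to 0.10) and Cd9 (-0.0042 to 0.087), for 3C in liver Trem2 (-0.12 to 0.28), Gpnmb (-0.26 to 0.25), Spp1 (-0.15 to 0.12), Lpl (-0.21 to 0.16), Cd9 (-0.17 to 0.35) and Adgre1 (-0.39 to 0.12), and Gpnmb between tissues in DMSO mice (-0.042 to 0.46). The cause was not tested in any of these. In no comparison did every same-numbered pair of libraries correlate above 0.1, so the numbers were not taken to pair the samples. All 4 pairs were positive between tissues, at 0.065 to 0.34 in young and 0.0048 to 0.093 in DMSO mice, where not every library correlated best with its own number. With the numbers as a block, no other call changed than those above, Spp1 in fibroblasts being the one gained (-1.23, adjusted p = 0.0190 by edgeR), and Lpl in old kidney, which was lost.

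Depth limits Trem2 and Gpnmb in young kidney, at 16 and 14 reads over 4 libraries, and Gpnmb in young liver, at 16 reads.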
